A study of Equus caballus with 15 samples.

Results

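The matrix metalloproteinases (MMPs) and their tissue inhibitors (TIMPs) were followed through 5 conditions of equine monocyte-derived macrophages. The genes were taken by symbol, namely MMP1, MMP2, MMP3, MMP9, MMP12, MMP14, MMP19, TIMP1, TIMP2 and TIMP3. A row was found for 9 of these 10 genes among the 16932 protein-coding genes listed, all 9 reached the mean of 1 CPM (a gene's reads scaled to a fixed total per library) needed for testing, and MMP3 was not analysed here. Macrophages were grown from blood mononuclear cells of 2 horses with 30 ng/ml of human M-CSF, the growth factor that drives monocytes to macrophages, in every condition. Untreated macrophages received no further cytokine. The other conditions received 10 ng/ml of IL-1ß, a cytokine of the inflamed joint, either alone or with an orthobiological therapy (OT) as 25% of the medium for 24 h. The OTs were the medium conditioned by mesenchymal stromal cells (MSC-CM), lysed platelet rich plasma (PRP lysate), and a blood serum product rich in cytokine antagonists, autologous conditioned serum (ACS). Each condition had 3 RNA-seq libraries. The labels place collection of the cells right after treatment, whereas the study's methods describe a further period of culture.

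MMPs are zinc-dependent proteases that are made as inactive precursors and together cleave most proteins of the extracellular matrix. TIMPs bind the active site of these proteases and block them, so that the balance between the families governs matrix breakdown in cartilage and synovium. Macrophages of an inflamed joint are known as a source of several MMPs, and IL-1ß is known to raise MMP output in chondrocytes and synovial fibroblasts.

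The libraries held 28410735 to 47894069 reads counted on genes, and a single read was worth 0.0209 to 0.0352 CPM. In these bulk samples fewer cells of a type and less RNA per cell cannot be told apart. The libraries of an OT stand for 3 donor horses of the product. Those of IL-1ß alone and of untreated macrophages are technical replicates, so p-values measure only the spread between these samples. The labels do not tie a library to either macrophage donor. The titles of all libraries share the prefix Mc1, and whether it marks a single macrophage source is not settled here. Of 12 macrophage markers 11 were listed, and their summed level was 4870 to 6910 CPM untreated, 4230 to 6960 with IL-1ß alone, 4770 to 5790 after MSC-CM, 2560 to 4600 after PRP lysate and 4110 to 5460 after ACS. PRP lysate, the condition in which MMP1 was lowest, thus lay below untreated macrophages and MSC-CM without overlap, and the part of this in the MMP1 values was not tested. Most of the macrophage sum was MRC1 (mean 2110 CPM, 515 to 3390) and CD68, a lysosomal protein of macrophages (1340 to 2160 CPM). CD163 ran from 7.34 to 710 CPM, whereas CD14 reached at most 4.32 CPM. There were 3 libraries that stood apart from the rest on the first principal component (55.4% of the variance), namely IL-1ß library 3 at −103.1, PRP lysate library 1 at −51.7 and MSC-CM library 1 at −20.7, against −8.15 to 26.6 in the other 12. All 3 were kept, and values without them are given where a call changed.

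MMP1 and TIMP3 were the MMP and TIMP genes whose mRNA changed past both thresholds, an adjusted p of at most 0.05 (limma, Benjamini-Hochberg over 11628 genes) and a log2 fold change of at least 1. TIMP3 fell with IL-1ß alone, 1 of the 9 genes against 0.292% of all genes tested. With MSC-CM added to IL-1ß 0 of the 9 were called against IL-1ß alone, where 0% of all genes were called by limma and 0.361% passed the same fold at an unadjusted p of 0.05, none of the 9 among them. With PRP lysate 2 of the 9 were called against IL-1ß alone (3.09% of all genes), TIMP3 higher and MMP1 lower. With ACS 1 of the 9 was called against IL-1ß alone (2.21% of all genes), TIMP3 again higher. These 3 comparisons share the IL-1ß libraries. Fitted with the libraries of IL-1ß and PRP lysate only, both calls were lost (MMP1 −1.66, adjusted p = 0.11; TIMP3 1.72, adjusted p = 0.0625; limma).

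Between OTs the same pair of genes was called. PRP lysate differed from MSC-CM in 2 of the 9 genes (2.61% of all genes), MMP1 being lower and TIMP3 higher. ACS differed from MSC-CM in 1 of the 9 (1.23% of all genes), TIMP3 being higher. PRP lysate differed from ACS in 1 of the 9 (0.0946% of all genes), MMP1 being lower. Against untreated macrophages, MSC-CM with IL-1ß differed in 1 gene, TIMP3, which was lower (0.662% of all genes), PRP lysate with IL-1ß in 0 (1.6% of all genes; also 0 of the 9 at an unadjusted p with the same fold, which 2.61% of all genes passed), and ACS with IL-1ß in 2, MMP1 and TIMP3, both of them higher (0.37% of all genes).

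**Figure D1:**
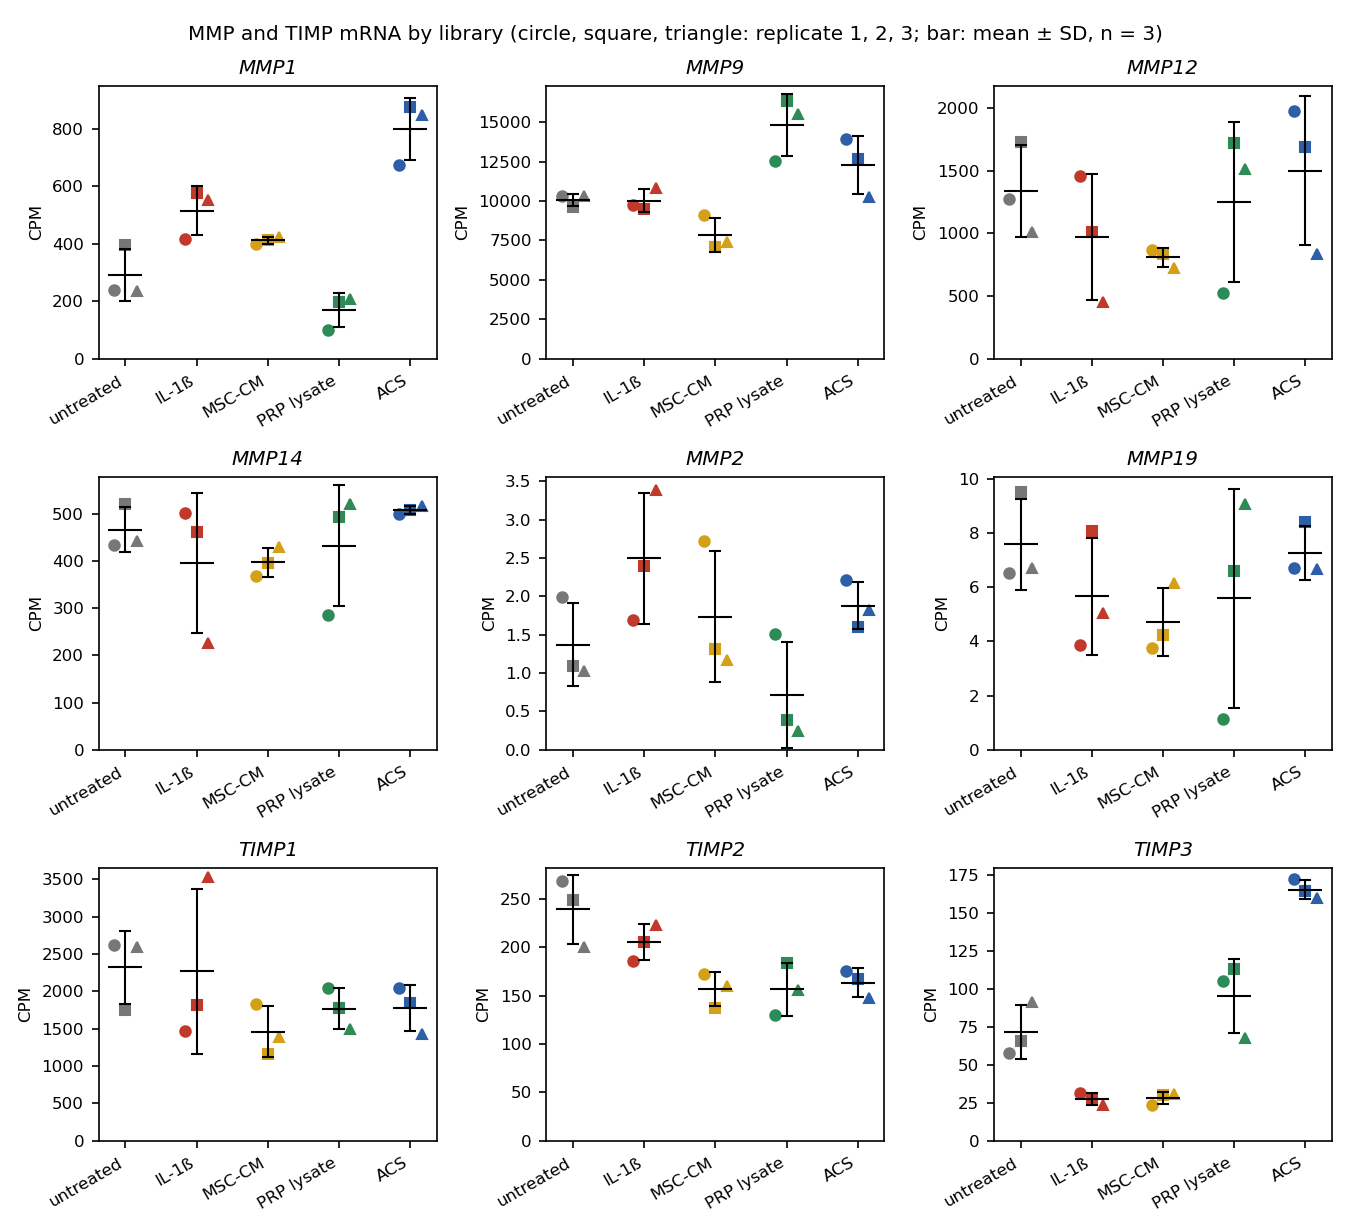
CPM of the 9 MMP and TIMP genes in the 15 libraries, 1 panel a gene with its own linear axis from 0; circles, squares and triangles are libraries 1, 2 and 3 of each condition, the long bar is the mean and the whiskers the SD (n = 3). The 3 ACS libraries lie above all others for MMP1 (675.7 to 877 CPM) and for TIMP3 (159.3 to 171.9 CPM), while PRP lysate has the lowest mean for MMP1 (169 CPM) and the highest for MMP9 (14810 CPM).

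MMP1 (ENSECAG00000023733), the interstitial collagenase that cuts fibrillar collagens, lies on chromosome 7 from 13098650 to 13176365 in EquCab3.0. In untreated macrophages its level was 239.9, 394.3 and 236.4 CPM in libraries 1 to 3, and with IL-1ß alone it was 417.1, 575.8 and 552.4 CPM. With IL-1ß and MSC-CM it was 399.4, 413.7 and 423.2 CPM. With IL-1ß and PRP lysate it was 100.5, 197.2 and 209.4 CPM, and with IL-1ß and ACS it was 675.7, 877 and 847 CPM. Every PRP lysate library was thus below every other library, and every ACS library above every other. The IL-1ß libraries lay above the untreated ones without overlap, whereas MSC-CM library 3 lay within the range of IL-1ß alone and libraries 1 and 2 just below it.

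The means were 290.2 ± 90.2 CPM untreated, 515.1 ± 85.7 with IL-1ß, 412.1 ± 11.97 after MSC-CM, 169 ± 59.7 after PRP lysate and 799.9 ± 109 after ACS (SD, n = 3 each). MMP1 fell by 1.66 (SE 0.27) on the log2(CPM + 1) scale with PRP lysate against IL-1ß alone (limma, Benjamini-Hochberg adjusted p = 0.00242). It was lower by −1.35 against MSC-CM (adjusted p = 0.0106, limma) and by −2.30 against ACS (adjusted p = 0.00264, limma), with the same SE. MMP1 was higher by 1.49 with ACS and IL-1ß together than in untreated macrophages (adjusted p = 0.0279, limma), a comparison in which both agents differ.

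No pair of conditions next to each other in the order PRP lysate, untreated, MSC-CM, IL-1ß, ACS passed the test for MMP1. The change with IL-1ß alone was 0.85 on the log2 scale (95% CI 0.28 to 1.43, adjusted p = 0.203, limma). MSC-CM differed from IL-1ß alone by −0.31 (95% CI −0.88 to 0.27, adjusted p = 0.706, limma), and ACS from IL-1ß alone by 0.64 (95% CI 0.07 to 1.21, adjusted p = 0.208, limma). PRP lysate differed from untreated macrophages by −0.81 (adjusted p = 0.162, limma) and MSC-CM from them by 0.55 (adjusted p = 0.346, limma). ACS differed from MSC-CM by 0.95 (adjusted p = 0.105, limma), which DESeq2 on recovered reads called at 1.00 (adjusted p = 0.0132).

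The fall with PRP lysate against IL-1ß alone remained called with any of the 6 libraries left out (−1.85 to −1.32 on the log2 scale) and at −1.27 without the 3 libraries that stood apart. The fall against MSC-CM was lost by a narrow margin without MSC-CM library 3 (adjusted p = 0.0531, limma), and the rise with ACS and IL-1ß against untreated macrophages was lost without any ACS library, without untreated library 1 or without untreated library 3 (1.37 to 1.73 over the 6 fits, adjusted p up to 0.179, limma) and, for MMP1 as for TIMP3, narrowly missed the threshold in edgeR (adjusted p = 0.0509). With the 2 groups only, the falls with PRP lysate against MSC-CM (adjusted p = 0.0693, limma) and against ACS (adjusted p = 0.0982, limma) were also lost.

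TIMP3 (ENSECAG00000018314; chromosome 28, 32034450 to 32089053), the inhibitor that stays bound to the matrix and also blocks ADAM and ADAMTS proteases, showed another pattern. Untreated macrophages held 57.5, 65.6 and 91.1 CPM in libraries 1 to 3. IL-1ß alone gave 31.6, 27.8 and 23.6 CPM, and IL-1ß with MSC-CM gave 23.4, 29.8 and 31.0 CPM. These 6 libraries lay below all the others, and the ranges of IL-1ß alone and MSC-CM overlapped.

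PRP lysate with IL-1ß gave 105, 113 and 67.6 CPM, and ACS with IL-1ß gave 171.9, 164 and 159.3 CPM. The ACS libraries lay closer together than those of any other condition for this gene on the log2 scale (SD 0.0548) and above all of them. PRP lysate overlapped the untreated range.

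TIMP3 averaged 27.7 ± 4.04 CPM with IL-1ß alone against 71.4 ± 17.5 CPM untreated (SD, n = 3), a fall of −1.32 on the log2 scale (SE 0.21, adjusted p = 0.0341, limma). With PRP lysate it averaged 95.2 ± 24.2 CPM, higher than with IL-1ß alone by 1.72 (adjusted p = 0.000445, limma). With ACS it averaged 165.1 ± 6.34 CPM, higher than with IL-1ß alone by 2.54 (adjusted p = 7.72e-05, limma), the largest difference of any of the 9 genes in the 10 comparisons. MSC-CM averaged 28.1 ± 4.07 CPM and differed from IL-1ß alone by 0.02 (95% CI −0.44 to 0.48, adjusted p = 0.975, limma), a difference whose sign turned under RLE scaling (−0.15), TMM scaling, DESeq2 and edgeR.

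Set against MSC-CM, TIMP3 was higher with PRP lysate by 1.70 (adjusted p = 0.000621, limma) and with ACS by 2.52 (adjusted p = 0.000293, limma). The PRP lysate libraries all lay below the ACS libraries, but the difference of −0.82 missed the threshold (95% CI −1.28 to −0.36, adjusted p = 0.311, limma). Against untreated macrophages TIMP3 was lower with MSC-CM by −1.30 (adjusted p = 0.0168, limma) and higher with ACS by 1.22 (adjusted p = 0.0263, limma), while PRP lysate differed by 0.40 (95% CI −0.06 to 0.86, adjusted p = 0.481, limma).

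The 4 TIMP3 calls of PRP lysate or ACS against IL-1ß alone or MSC-CM remained with any single library left out. The 3 calls against untreated macrophages were each kept in 1 of 6 such fits. The call for IL-1ß alone remained without IL-1ß library 3 and was lost without any of the other 5 libraries (−1.46 to −1.13, adjusted p up to 0.153, limma). It was also lost with the 2 groups only (adjusted p = 0.472, limma), and in all it was made in 10 of 17 alternatives. That for MSC-CM remained without untreated library 1 (−1.44 to −1.11, adjusted p up to 0.076) and that for ACS without untreated library 3 (1.08 to 1.41, adjusted p up to 0.168, both limma), and each was lost without any of the other 5. With a block for the replicate number the calls against untreated macrophages were also lost for IL-1ß alone and for MSC-CM (adjusted p = 0.21 for MSC-CM, limma). Without the 3 libraries that stood apart all 7 TIMP3 calls were made.

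Endothelial markers moved with TIMP3 in part. The summed level of 6 such markers, all listed and 3 of them tested, was 23.4 to 40.8 CPM untreated, 9.09 to 17.8 with IL-1ß, 12.4 to 20.4 after MSC-CM, 15.2 to 32.1 after PRP lysate and 22.7 to 27.7 after ACS. Most of this was TEK, an angiopoietin receptor (6.57 to 29.9 CPM). CDH5, the cadherin of endothelial junctions, stood at 1.53 to 12.7 CPM and KDR at 0.521 to 2.83 CPM, while VWF, CLDN5 and ESAM reached at most 0.226, 0.793 and 0.361 CPM. Of 9 fibroblast and stromal markers 8 were listed, with a summed level of 8.2 to 12.1 CPM untreated, 5.64 to 11.1 with IL-1ß, 8.9 to 12.4 after MSC-CM, 10.5 to 19.3 after PRP lysate and 8.86 to 21.1 after ACS. The surface protein THY1, up to 17.9 CPM, made up most of it, and COL1A1 reached at most 1.61 CPM. Platelet markers, 4 of 6 listed, summed to 3.45 to 5.86 CPM untreated, 11.9 to 14 with IL-1ß, 6.53 to 9.01 after MSC-CM, 12.2 to 41.3 after PRP lysate and 11.4 to 17.8 after ACS. On average most of this was PPBP (mean 11.4 CPM, 1.23 to 39.1), against a mean of 1.92 CPM for ITGA2B. The paper lists PPBP among the genes that IL-1ß raised most in these macrophages. T cell markers, 6 of 6 listed, summed to 557 to 799 CPM untreated, 772 to 1430 with IL-1ß, 1070 to 1130 after MSC-CM, 743 to 1490 after PRP lysate and 670 to 830 after ACS. The part of such cells in the TIMP3 and MMP1 values was not tested.

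**Figure D2:**
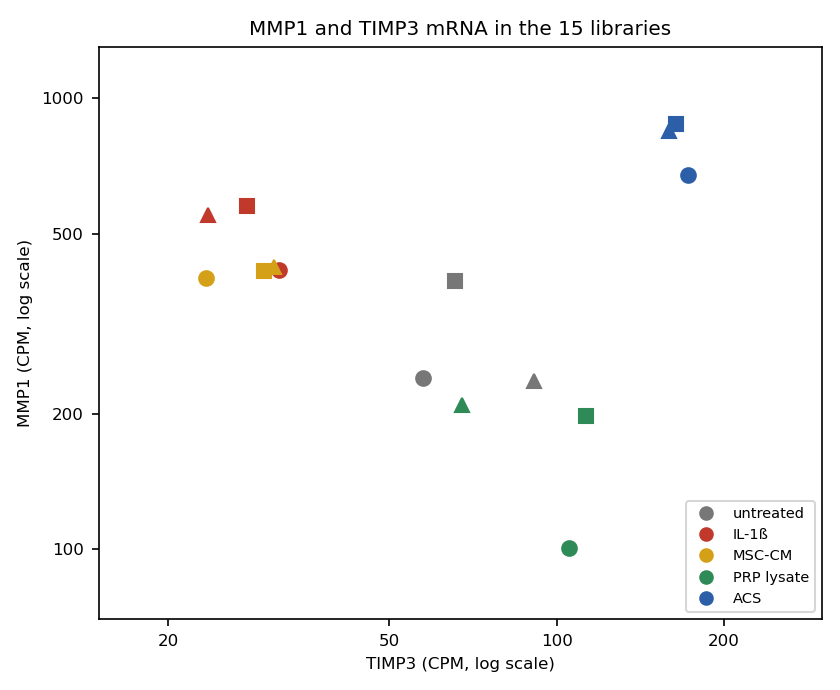
MMP1 (vertical) against TIMP3 (horizontal) in CPM, both on log axes, in the 15 libraries; color gives the condition and circle, square and triangle libraries 1, 2 and 3. IL-1ß alone and MSC-CM lie together at 23.4 to 31.6 CPM of TIMP3, PRP lysate lies lowest in MMP1 and ACS lies highest in both.

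Against IL-1ß alone, MMP1 fell and TIMP3 rose with PRP lysate, while with ACS TIMP3 rose and MMP1 did not pass the test. The ratio of their CPM was 4.26 ± 1.71 in untreated macrophages, 19.1 ± 5.33 with IL-1ß alone and 14.9 ± 1.9 with MSC-CM (SD, n = 3). It was 1.93 ± 1.08 with PRP lysate and 4.86 ± 0.808 with ACS. The lowest MMP1:TIMP3 library with IL-1ß alone (13.2) and the lowest with MSC-CM (13.7) lay above the highest of the other conditions (6.01, untreated). With the other inhibitors ACS had the highest mean MMP1 ratios, and its MMP1:TIMP1 range overlapped that of MSC-CM. MMP1:TIMP2 was 1.22 ± 0.348 untreated, 2.51 ± 0.285 with IL-1ß alone, 2.65 ± 0.348 after MSC-CM, 1.06 ± 0.284 after PRP lysate and 4.94 ± 0.982 after ACS. MMP1:TIMP1 was 0.136 ± 0.0769, 0.253 ± 0.0849, 0.294 ± 0.0703, 0.1 ± 0.0464 and 0.465 ± 0.13 in the same order. The ratios are given as a description of mRNA without a test, since the genes were already tested one by one, and gene length was not corrected for.

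**Figure D3:**
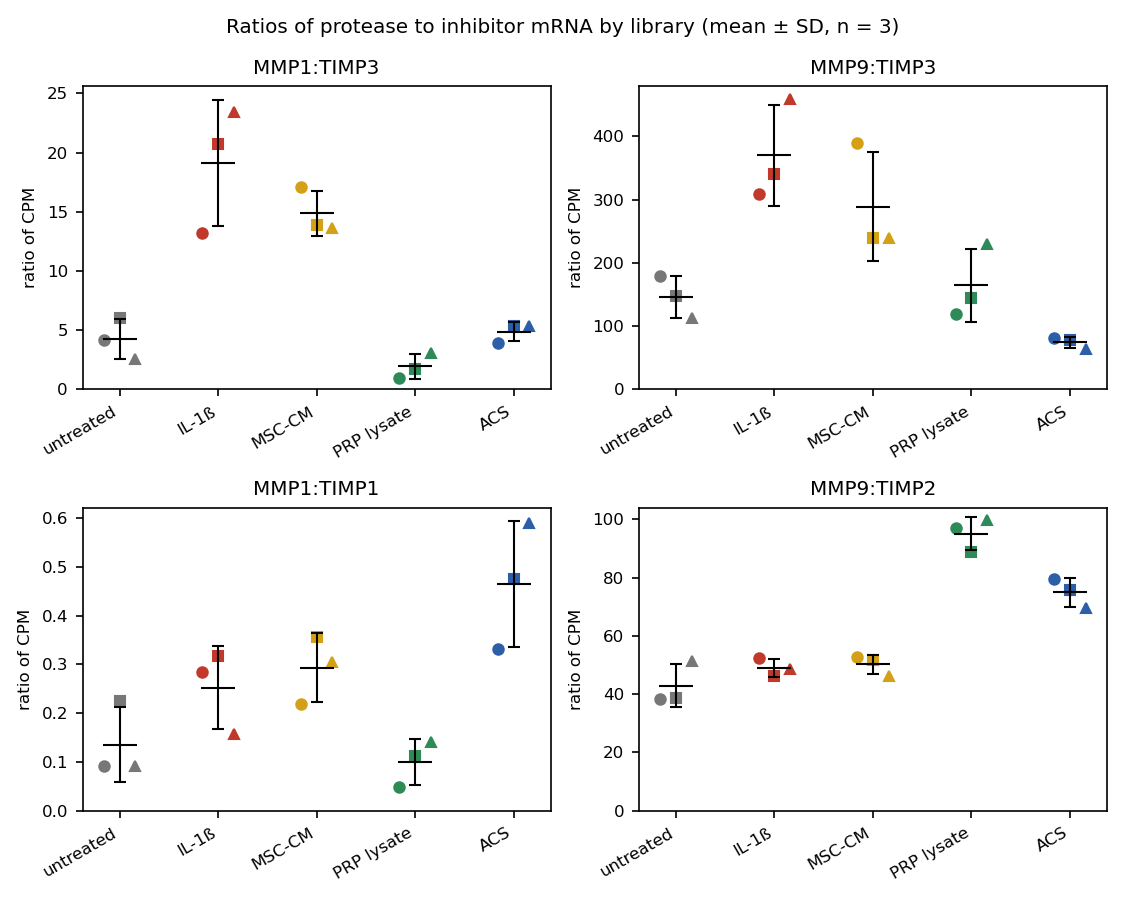
Ratios of protease to inhibitor CPM in each library, with linear axes from 0; circle, square and triangle are libraries 1, 2 and 3, the long bar is the mean and the whiskers the SD (n = 3). MMP1:TIMP3 is 13.2 to 23.5 with IL-1ß alone and 0.957 to 3.1 with PRP lysate, and MMP9:TIMP2 is 88.7 to 99.6 with PRP lysate against 38.4 to 51.5 untreated.

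MMP9 (ENSECAG00000013081; chromosome 22, 35835605 to 36022435), gelatinase B, which degrades denatured collagen and basement membrane collagen, took the most reads of any listed gene in 7 of the 15 libraries and ranked no lower than 4 in any. It stood at 10320, 9645 and 10290 CPM in untreated libraries 1 to 3 and at 9759, 9470 and 10830 CPM with IL-1ß alone. These ranges overlapped, and IL-1ß alone differed from untreated macrophages by 10020 ± 717 against 10080 ± 380 CPM (SD, n = 3).

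MMP9 was 9106, 7100 and 7419 CPM with MSC-CM, below every library of every other condition. It was 12560, 16320 and 15540 CPM with PRP lysate and 13930, 12680 and 10260 CPM with ACS. The PRP lysate libraries lay above all untreated, IL-1ß and MSC-CM libraries, whereas the ACS range reached down into those of IL-1ß alone and untreated macrophages.

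For MMP9 3 comparisons passed the adjusted p and none passed the fold threshold. PRP lysate (14810 ± 1985 CPM) exceeded IL-1ß alone by 0.56 on the log2 scale (SE 0.15, adjusted p = 0.0446, limma). It exceeded MSC-CM (7875 ± 1078 CPM) by 0.91 (adjusted p = 0.00293, limma), which passed the fold threshold without PRP lysate library 1 (1.03), without MSC-CM library 1 (1.02) and without the 3 libraries that stood apart (1.13). ACS (12290 ± 1865 CPM) exceeded MSC-CM by 0.64 (adjusted p = 0.0419, limma). MSC-CM differed from IL-1ß alone by −0.35 (95% CI −0.67 to −0.04, adjusted p = 0.705, limma) and from untreated macrophages by −0.36 (adjusted p = 0.23, limma), and PRP lysate differed from untreated macrophages by 0.55 (adjusted p = 0.0729, limma).

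Neutrophils also make MMP9, and 3 of 6 neutrophil markers were listed. Their summed level was 268 to 430 CPM over the untreated, IL-1ß and MSC-CM libraries, 485 to 546 CPM with PRP lysate and 530 to 759 CPM with ACS. Nearly all of it was CSF3R, the receptor for G-CSF that monocytic cells also carry, while the granule enzymes ELANE and MPO reached at most 0.383 and 3.81 CPM. The part of such cells in the MMP9 values was not tested. The span of MMP9 in the file covers those of CD40, CDH22, NCOA5 and SLC12A5 in whole or in part, and no strand setting is stated for the counting. Overlapping spans are also listed for TIMP3 (SYN3), TIMP1 (SYN1 and PRPS2) and MMP14 (SLC7A7), so the values of these genes carry the same uncertainty.

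MMP2 (ENSECAG00000000953; chromosome 3, 8341157 to 8366791), gelatinase A, which MMP14 activates at the cell surface, was scarce at 7 to 120 reads a library. It was 1.70, 2.40 and 3.39 CPM with IL-1ß alone and 1.51, 0.383 and 0.246 CPM with PRP lysate. These groups did not overlap, though PRP lysate library 1 came close to the lowest IL-1ß library. The difference of −1.07 on the log2(CPM + 1) scale (SE 0.30) missed the threshold (adjusted p = 0.0631, limma). It was called without PRP lysate library 1 (−1.38, adjusted p = 0.0125, limma), without IL-1ß library 1 (−1.25, adjusted p = 0.0481, limma), without the 3 libraries that stood apart and by DESeq2 on recovered reads (−1.90, adjusted p = 0.0445).

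Elsewhere MMP2 averaged 1.37 ± 0.541 CPM untreated, 1.73 ± 0.856 with MSC-CM and 1.88 ± 0.306 with ACS (SD, n = 3). PRP lysate lay below ACS in all libraries (−0.82, adjusted p = 0.764, limma) and overlapped MSC-CM (−0.70, adjusted p = 0.286, limma).

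The other proteases were not called in any of the 10 comparisons. MMP12 (ENSECAG00000019445; chromosome 7, 13198039 to 13237931), the macrophage elastase, ranged from 451.5 to 1973 CPM. It averaged 1338 ± 366 CPM untreated, 974 ± 503 with IL-1ß alone, 808 ± 74.2 after MSC-CM, 1253 ± 639 after PRP lysate and 1499 ± 595 after ACS (SD, n = 3). Its libraries of 1 condition differed widely, from 451.5 to 1455 CPM with IL-1ß alone and from 524.5 to 1719 CPM with PRP lysate, the lowest of each being a library that stood apart.

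MMP14 (ENSECAG00000008351; chromosome 1, 162866390 to 162875387), the membrane-anchored collagenase MT1-MMP, averaged between 396 and 508 CPM in all conditions. Its lowest values, 226 and 284.6 CPM, were again in IL-1ß library 3 and PRP lysate library 1, and with ACS its libraries spanned only 500.1 to 516.6 CPM. MMP19 (ENSECAG00000010967; chromosome 6, 74503241 to 74508051), a protease of basement membrane and cartilage matrix proteins, ranged from 1.13 CPM in PRP lysate library 1 to 9.50 CPM in untreated library 2. All 3 of these genes lay lower with MSC-CM than in untreated macrophages without overlap, and MMP14 and MMP19 also lay higher with ACS than with MSC-CM without overlap. None of these differences passed the test, also without the 3 libraries that stood apart.

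TIMP1 (ENSECAG00000014259; chromosome X, 40033705 to 40036521), the secreted inhibitor that also binds the MMP9 precursor, stood at 1158 to 3533 CPM. Its mean was 2322 ± 491 CPM untreated, 2272 ± 1106 with IL-1ß alone, 1458 ± 342 after MSC-CM, 1769 ± 273 after PRP lysate and 1775 ± 309 after ACS (SD, n = 3). Its ranges overlapped in all 10 pairs of conditions. IL-1ß library 3 alone held 3533 CPM, against 1467 and 1816 CPM in the other libraries of that condition.

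TIMP2 (ENSECAG00000011834; chromosome 11, 3811598 to 3858412), the inhibitor that takes part in the activation of MMP2 by MMP14, was 268.8, 248.7 and 199.7 CPM in untreated macrophages. With IL-1ß alone it was 186.2, 205.1 and 223.3 CPM. It was 172.8, 137.6 and 159.9 CPM with MSC-CM, 129.7, 184.1 and 156 CPM with PRP lysate and 175.6, 167.6 and 147.4 CPM with ACS. All 9 libraries with an OT lay below all 6 without one.

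The differences in TIMP2 were small and did not pass the test. Against untreated macrophages they were −0.60 with MSC-CM (adjusted p = 0.0737, limma), −0.61 with PRP lysate (adjusted p = 0.063, limma) and −0.54 with ACS (adjusted p = 0.25, limma). Against IL-1ß alone they were −0.39 with MSC-CM (adjusted p = 0.705, limma), −0.40 with PRP lysate (adjusted p = 0.2, limma) and −0.32 with ACS (adjusted p = 0.254, limma). MMP9 and TIMP2 together gave a CPM ratio of 42.9 ± 7.47 untreated, 49 ± 3.15 with IL-1ß alone, 50.2 ± 3.37 after MSC-CM, 95.1 ± 5.71 after PRP lysate and 74.9 ± 4.9 after ACS, given without a test. MMP9:TIMP3 ran another way, at 146 ± 33.3 untreated, 370 ± 79.7 with IL-1ß alone, 289 ± 86.6 after MSC-CM, 165 ± 57.9 after PRP lysate and 74.3 ± 8.72 after ACS.

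**Figure D4:**
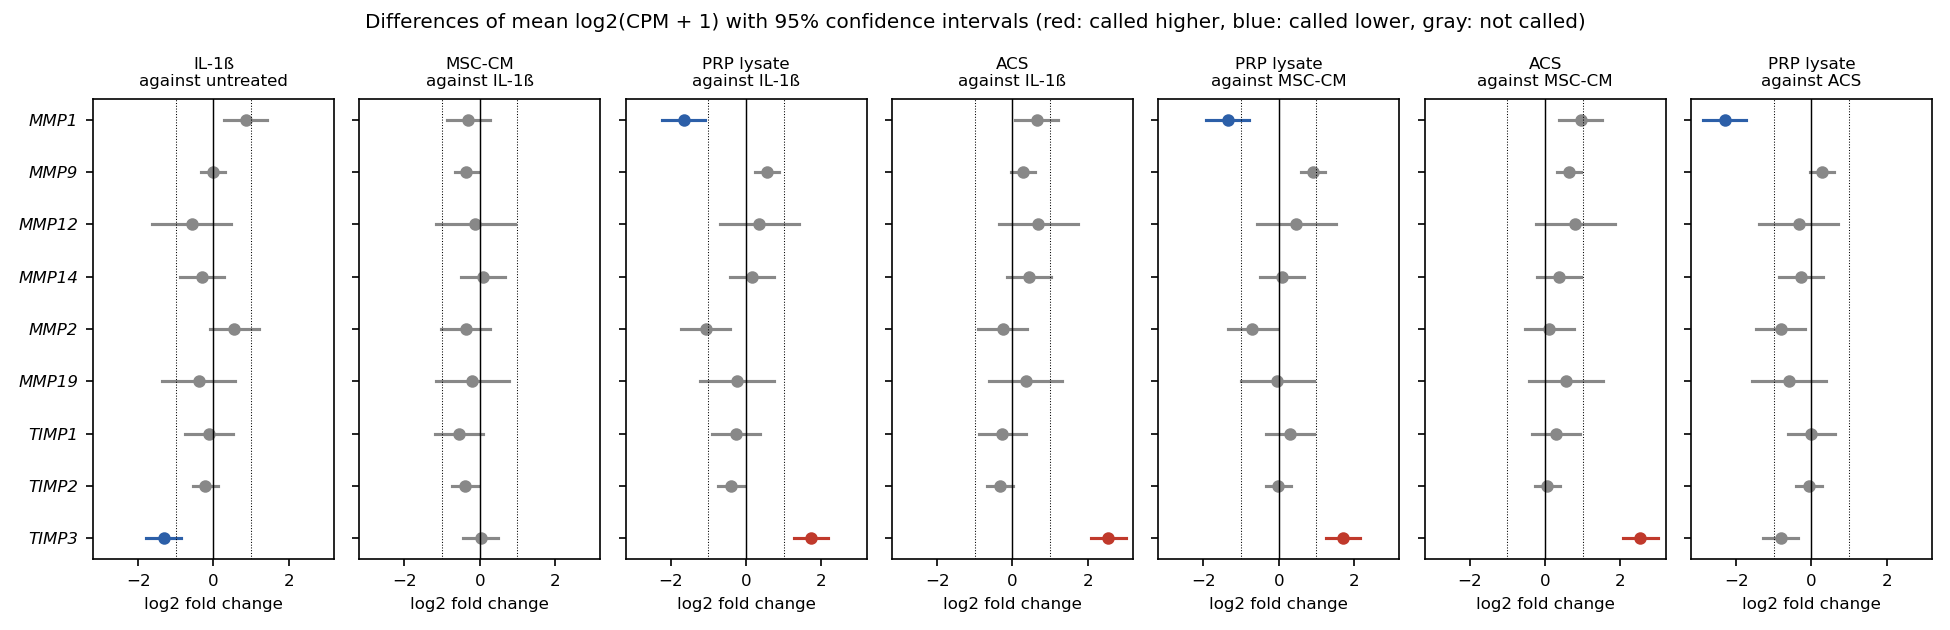
Differences of mean log2(CPM + 1) for the 9 genes in 7 comparisons, with 95% confidence intervals from limma; red is called higher, blue called lower, gray not called, and dotted lines mark the fold threshold of 1. The colored points are all MMP1 or TIMP3, and TIMP3 with ACS lies farthest from 0 at 2.54 against IL-1ß alone.

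Over the 9 genes together, the median log2 difference was −0.21 with IL-1ß alone against untreated macrophages, where that of all genes tested was −0.07. Against IL-1ß alone it was −0.31 with MSC-CM (all genes 0.16), −0.24 with PRP lysate (all genes 0.11) and 0.36 with ACS (all genes 0.13). Between MSC-CM and untreated macrophages 7 of the 9 genes did not overlap (30.8% of all genes), 6 of them lower with MSC-CM (8.93% of all genes). PRP lysate and IL-1ß alone did not overlap in 5 of the 9 (15% of all genes), and ACS and MSC-CM in 5 of the 9, all higher with ACS (35.1% of all genes in either direction, 12.9% in this one). ACS and IL-1ß alone did not overlap in 3 of the 9 (26.2% of all genes), near the share of all genes. In the other comparisons 2 or 3 of the 9 did not overlap, where 16.2% of all genes did not for IL-1ß alone against untreated macrophages, 8.79% for MSC-CM against IL-1ß alone, 19.4% for PRP lysate against MSC-CM, 15.6% for PRP lysate against ACS, 18.6% for PRP lysate against untreated macrophages and 26.3% for ACS against untreated macrophages.

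Osteoclasts, which arise from the same precursors as macrophages, also make MMP9 and MMP14, and their markers moved with some of these differences. The summed level of 6 such markers, all listed and 5 tested, was 2280 to 2820 CPM untreated, 1180 to 2470 with IL-1ß alone, 1600 to 1730 after MSC-CM, 1540 to 2690 after PRP lysate and 2040 to 2730 after ACS. MSC-CM thus lay below untreated macrophages and below ACS without overlap. CTSK, which macrophages also express, made up much of it (726 to 2160 CPM). OCSTAMP and DCSTAMP, which serve cell fusion, stood at 120 to 444 and 16.7 to 187 CPM, the acid phosphatase ACP5 at 84.3 to 246 CPM and ATP6V0D2 at 27.5 to 74.5 CPM, while the calcitonin receptor CALCR reached at most 0.15 CPM. The part of such cells in the MMP and TIMP values was not tested.

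Of 15 other MMP genes looked for, 11 were listed and 3 reached the level for testing, MMP13, MMP23B and MMP25. MMP25, a leukocyte protease anchored in the membrane, rose with ACS against MSC-CM from 36.0 ± 2.24 to 74.3 ± 4.03 CPM (SD, n = 3; log2 difference 1.03, adjusted p = 0.00304, limma). It was the 1 of these 3 genes called there (1.23% of all genes), and it remained called in 13 of 16 alternatives (0.98 to 1.10). With PRP lysate MMP25 averaged 68.6 CPM, and it averaged 38.7 CPM with IL-1ß alone and 40.4 CPM untreated. The adjusted p, though not the fold threshold, was also passed by PRP lysate against MSC-CM (0.90, adjusted p = 0.00277, limma), against IL-1ß alone (0.81, adjusted p = 0.00469, limma) and against untreated macrophages (0.74, adjusted p = 0.0151, limma). The same held for ACS against IL-1ß alone (0.93, adjusted p = 0.0042, limma) and against untreated macrophages (0.86, adjusted p = 0.0218, limma). The neutrophil marker sums given beside MMP9, nearly all CSF3R, were likewise higher with PRP lysate and ACS (485 to 759 CPM). They were 268 to 430 CPM in the other conditions, and the part of such cells in the MMP25 values was not tested. MMP13, the collagenase of chondrocytes, averaged 0.746 CPM untreated, 1.94 with IL-1ß alone, 1.88 after MSC-CM, 0.781 after PRP lysate and 0.931 after ACS, and did not pass the test in any comparison.

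Among 21 ADAM and ADAMTS proteases, 12 were tested and 1 was called. It was called with PRP lysate against IL-1ß alone (3.09% of all genes) and against MSC-CM (2.61% of all genes). ADAM28, a membrane protease of lymphocytes and myeloid cells, was lower with PRP lysate (0.732 ± 0.366 CPM) than with IL-1ß alone (9.92 ± 7.12 CPM), a log2 difference of −2.40 (adjusted p = 0.0202, limma). It was also lower than with MSC-CM (8.49 ± 4.27 CPM; −2.38, adjusted p = 0.0232, limma). These calls remained in 12 and 11 of 17 alternatives. B cell markers, 4 of 5 listed, summed to 15.5 to 22.7 CPM untreated, 24.5 to 47.6 with IL-1ß alone, 22.2 to 29.8 after MSC-CM, 12 to 28.2 after PRP lysate and 13.4 to 19.3 after ACS, and the part of such cells in the ADAM28 values was not tested.

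Of 14 proteases and receptors that activate MMPs, 11 were tested and 1 was called, in the same comparisons (3.09% and 2.61% of all genes). PLAU, urokinase, which turns plasminogen into the plasmin that cleaves MMP precursors, was lower with PRP lysate (80.3 ± 35.7 CPM) than with IL-1ß alone (188.2 ± 51.5 CPM; −1.30, adjusted p = 0.0398, limma). Against MSC-CM (226.8 ± 36.2 CPM) it was lower by −1.59 (adjusted p = 0.0144, limma). These calls remained in 10 and 13 of 17 alternatives. Macrophage marker sums were also lower with PRP lysate (2560 to 4600 CPM) than with MSC-CM (4770 to 5790 CPM), and overlapped those of IL-1ß alone (4230 to 6960 CPM). The part of this in the PLAU values was not tested.

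From a list of 15 other inhibitors, partners and clearance receptors 9 were tested, and 2 of those called are given. The calls given are for ACS against IL-1ß alone (2.21% of all genes), ACS against MSC-CM (1.23%) and PRP lysate against MSC-CM (2.61%). TFPI2, an inhibitor of plasmin and other serine proteases, was higher with ACS (30.4 ± 12.2 CPM) than with IL-1ß alone (8.71 ± 2.97 CPM; 1.66, adjusted p = 0.00913, limma) or MSC-CM (8.68 ± 1.04 CPM; 1.62, adjusted p = 0.0132, limma). MRC2, a receptor that takes up collagen, was lower with PRP lysate (11.0 ± 4.53 CPM) than with MSC-CM (23.4 ± 1.65 CPM; −1.10, adjusted p = 0.0424, limma). The TFPI2 calls remained in 13 and 12 of 16 alternatives, and that of MRC2 in 7 of 17. Endothelial marker sums were also higher with ACS (22.7 to 27.7 CPM) than with IL-1ß alone (9.09 to 17.8) or MSC-CM (12.4 to 20.4). They reached highest untreated (23.4 to 40.8 CPM), where TFPI2 averaged 15.6 CPM. The part of such cells in the TFPI2 values was not tested.

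Of 16 transcription factors with sites in MMP promoters, 15 were tested and 1 was called. The calls were against untreated macrophages with IL-1ß alone (0.292% of all genes) and MSC-CM (0.662%), and with PRP lysate against IL-1ß alone (3.09%). FOSL1, an AP-1 subunit, averaged 19.6 ± 1.70 CPM untreated and fell to 7.51 ± 1.13 CPM with IL-1ß alone (−1.28, adjusted p = 0.0352, limma) and to 9.26 ± 1.00 CPM with MSC-CM (−1.01, adjusted p = 0.0404, limma). With PRP lysate it was 17.8 ± 5.06 CPM, higher than with IL-1ß alone by 1.11 (adjusted p = 0.0107, limma). These calls remained in 10, 8 and 12 of 17 alternatives. In these 5 lists no gene was called for MSC-CM against IL-1ß alone, for PRP lysate against ACS or for ACS against untreated macrophages.

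Among the genes whose log2 level ran most like TIMP3 over the 15 libraries were ICAM1, an adhesion molecule (Pearson r = 0.959), and IRF8, a transcription factor of monocytes (r = 0.957). ICAM1 averaged 1080 CPM untreated, 728 with IL-1ß alone, 707 after MSC-CM, 1260 after PRP lysate and 1470 after ACS. MMP1 ran most like NDUFA4L2, a mitochondrial protein (r = 0.903), which averaged 2.22, 7.43, 4.33, 1.09 and 6.62 CPM in the same order.

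MMP9 ran most like C1H15orf48 (r = 0.917), an unnamed gene (r = 0.91) and HILPDA, a lipid droplet protein (r = 0.904). MMP12 ran most like CTSK, cathepsin K, a collagen-degrading protease (r = 0.944), MMP14 like USP6NL (r = 0.984), TIMP1 like the actin-capping protein CAPG (r = 0.949), and MMP2, MMP19 and TIMP2 most like CARD9 (r = 0.889), HEATR6 (r = 0.927) and an unnamed gene (r = 0.923). These libraries share their conditions, and the 3 that stood apart weigh on such values.

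MMP1 and MMP12 are neighbours on chromosome 7 in the file, with MMP20 before and MMP13 after them. MMP20, the enamel protease, averaged 0.00667 CPM over all libraries. BIRC3, an inhibitor of apoptosis before them, averaged 1629 CPM untreated, 968 with IL-1ß alone, 1122 after MSC-CM, 1676 after PRP lysate and 2049 after ACS. BIRC3 did not pass the test in any of the 10 comparisons, coming nearest for ACS against IL-1ß alone (1.10, adjusted p = 0.0578, limma). MMP1 differed less there (0.64, adjusted p = 0.208, limma). MMP1 was thus the called gene among the 6 genes tested within 500 kb of it, itself included. The other 3 of the 9 genes listed there, YAP1, MMP20 and DYNC2H1, averaged under 1 CPM and were not tested. The span of MMP1 in the file is 77716 bases. In the RefSeq annotation of the assembly TB-T2T, MMP27, MMP8, MMP1 and MMP3 lie between MMP20 and MMP12, and whether reads of the other 3 entered the MMP1 value was not tested.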

How the data were processed

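Polyadenylated RNA of macrophages was sequenced in 5 conditions with 3 libraries each. Per the submitters' processing notes and the study's methods, reads were trimmed, aligned to EquCab 3.0 by STAR 2.7.3 and counted by HTSeq within Partek Flow. The authors deposited CPM, in which each library's reads on genes are scaled to the same total. Any filter on genes and the strand setting are not given in the sources used here. Of the values above 0, 99.6% were whole multiples (within 0.1 read) of the smallest step of their library, which gave reads, depth (28410735 to 47894069) and counts for DESeq2 1.42.0 and edgeR 4.0.16.

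The main test was limma 3.58.1 in R 4.3.3, with a trend, on log2(CPM + 1) of the 11628 of 16932 genes that averaged 1 CPM or more, since CPM are not counts. All 15 libraries entered 1 model of 5 conditions, and Benjamini-Hochberg adjustment was made within each of 10 comparisons. A gene was called at an adjusted p of at most 0.05 and a log2 fold change of at least 1. These fold changes understate the change of genes with few CPM. An exact permutation of 3 libraries against 3 cannot go below p = 0.1 and was not used.

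The members, the gene lists and the tests were chosen with earlier results of these data known. Named besides the members were up to 3 called genes a list and comparison, the genes with the highest Pearson r to each member, and those within 500 kb of MMP1. Alternatives were DESeq2, edgeR, RLE or TMM scaling, a pseudocount of 0.1, no filter, no fold threshold, the unadjusted p, the 2 groups only, a replicate block and leaving out each library. Leaving out together the 3 libraries that stood apart was added after seeing the data. On simulated data only the recovery of reads and the limma, DESeq2 and edgeR fits of ACS against IL-1ß alone were tested. Figures were drawn with matplotlib 3.10.9 in Python 3.11.15. Gene lengths and sequences were not used here, and the results of 2 genes that the naming rule picked are not reported here.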

Additional observations from a re-analysis of the deposited data

How the results depend on the processing

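Of the 166 recomputed counts of called MMP and TIMP genes, 140 were within 1.5 times the count first given, and none of the recomputed values of called genes changed sign (152 remained called, 30 did not). DESeq2 called 2 genes for ACS against MSC-CM (MMP1 and TIMP3), and without the fold threshold 2 were called there (MMP9 and TIMP3). With edgeR 0 were called for ACS against untreated macrophages, where MMP1 and TIMP3 both had an adjusted p of 0.0509. With the 2 groups only, which leaves fewer samples to estimate the spread, 0 were called for IL-1ß against untreated, 0 for PRP lysate against IL-1ß, 1 for PRP lysate against MSC-CM (TIMP3) and 0 for PRP lysate against ACS. Leaving out 1 library at a time gave 0 to 1 called gene for IL-1ß against untreated, 1 to 3 for PRP lysate against MSC-CM (3, with MMP9, without PRP lysate library 1 or MSC-CM library 1), 0 to 1 for MSC-CM against untreated and 0 to 2 for ACS against untreated. Each such fit tests the lone pair left with the spread of all groups. How many of all genes were called under these settings is not given here. Whether calls were lost in the MMP and TIMP genes alone or over all genes was thus not tested.

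The near-zero difference of TIMP3 between MSC-CM and IL-1ß alone turned from 0.02 to −0.15 with DESeq2, −0.11 with edgeR, −0.15 with RLE and −0.12 with TMM, and ran from −0.086 to 0.14 with 1 library left out. RLE scaling moved the median of all genes in that comparison from 0.162 to 0.002. It also moved the median by over 0.1 for ACS against IL-1ß (0.132 to 0.0173) and MSC-CM against untreated (0.104 to −0.0105). Among recomputed values of genes not called, 81 changed sign, 12 became called and 1219 did neither. The cause of these changes was not tested.

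A replicate block could be fitted to the 12 libraries whose titles hold numbers, which leaves out ACS. With the block 0 of the MMP and TIMP genes were called for IL-1ß against untreated (TIMP3 adjusted p = 0.263, limma). For MSC-CM against untreated 0 were also called (TIMP3 adjusted p = 0.21, limma). No other count of these calls changed, and the share of all genes called with the block is not given here. The numbers were not taken to pair the libraries, since the deviations from the group means correlated over 0.1 in 11 of 18 pairs with the same number (−0.775 to 0.635), and 6 of 12 libraries correlated best with their own number.

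Depth limits MMP2, which had 7 reads in its lowest library, more than the other 8 genes, of which the scarcest, MMP19, had at least 42.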
